A study of Homo sapiens with 12 samples.

Results

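Non-homologous end joining (NHEJ) genes were examined in HD-MB03 cells, a human medulloblastoma (MB) line with an amplified MYC gene, under the class I histone deacetylase inhibitor entinostat. The 10 genes were XRCC4, XRCC5, XRCC6, LIG4, PRKDC, DCLRE1C, NHEJ1, POLL, POLM and TP53BP1. They were found through the gene symbols of the array annotation, which assigned them 26 of the 54613 probe sets tested. Of these, 25 carried a single symbol and covered 9 of the 19775 genes that could be named in this way. The only probe set of NHEJ1, 219418_at, also listed SLC23A3, so its values are given but not counted for a gene.

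Cells received 1 µM entinostat for 24 h or 48 h, or DMSO, the solvent control, for the same times. Each of these 4 groups comprised 3 biological replicates, with 1 Human Genome U133 Plus 2.0 microarray (Affymetrix) per RNA sample, 12 in all. All groups come from the same cell line, so the p-values measure the spread between replicate cultures of that line and not between tumours. The DMSO samples are also labelled untreated. The deposited intensities were on a linear scale, had been normalized between arrays, and had a floor (lowest value 36.7, array medians 80.69 to 81.92). How background had been handled could not be settled, since the methods name GCRMA while the values keep this floor, so results were also computed with 30 subtracted or 50 added. Of the Group 3 MB markers, MYC, with a mean intensity of 11260 in DMSO at 24 h, and OTX2, with 6561, were bright. IMPG2 was at 2880, NRL at 1076 and GABRA5 at 924 in the same group, whereas CRX was at 110.6 and NPR3 at 71.6. Markers of other types were not uniformly dim there. PDLIM3, a marker of the SHH subgroup of MB, was at 1148, whereas the other SHH markers ran from 53.85 (HHIP) to 219 (GLI2). Markers of the WNT subgroup ran from 47.4 (DKK2) to 116.5 (AXIN2). The fibroblast marker COL1A1 was at 299 and the other fibroblast markers ran from 51.8 (LUM) to 107 (PDGFRB). The leukocyte markers measured ran from 52.4 (PTPRC) to 95.8 (CD3E). As a sign of RNA quality, 3' minus 5' control probe sets (log2) were compared between entinostat and DMSO with an exact two-sided permutation test. For GAPDH this exact test gave 0.6 as p after 24 h and 0.3 after 48 h (n = 3 against 3). For ACTB the exact p was 1 after 24 h and 0.1 after 48 h, the smallest possible for groups of 3 (mean -0.07 for DMSO, -0.14 for entinostat). In bulk RNA, fewer cells of a type and less RNA per cell cannot be told apart.

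NHEJ rejoins the ends of a DNA double-strand break without a template and works throughout the cell cycle. The Ku heterodimer of XRCC6 (Ku70) and XRCC5 (Ku80) binds the ends and recruits the kinase DNA-PKcs, encoded by PRKDC. Ends that cannot be joined directly are trimmed by the nuclease Artemis (DCLRE1C) and filled by the polymerases POLL and POLM, and LIG4 seals them together with XRCC4 and XLF (NHEJ1). TP53BP1 encodes 53BP1, which protects ends from resection and so favours NHEJ over homologous recombination.

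Entinostat treatment changed a few NHEJ genes, and not in the same direction. XRCC6 (200792_at) fell by a small amount at both times, with changes of -10.1% at 24 h and -10.98% at 48 h. The other Ku subunit, XRCC5, fell at both times on 208643_s_at (-20.02% and -22.9%), whereas its brightest probe set, 208642_s_at, had -7.1% at 24 h, which did not pass, and fell at 48 h (-10.2%). LIG4 rose by 26.0% and 56.9% on probe set 206235_at. The XRCC4 probe set 210813_s_at fell by 26.9% at 24 h. No probe set of PRKDC, POLL, POLM or TP53BP1 passed the test at either time.

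Counted over probe sets, 2 of the 26 were higher and 3 lower under entinostat at 24 h (adjusted p under 0.05, limma). Among all probe sets tested, 12.8% were higher and 12.4% lower, 25.2% together, against 19.2% of the NHEJ probe sets. At 48 h, 1 was higher and 4 were lower, again 19.2%, against 12.9% higher, 13.2% lower and 26.1% in all among all probe sets. Over both times in an additive model, 2 were higher and 7 lower (34.6%), against 15.7% and 17% (32.7%). The share of NHEJ probe sets that passed was thus near that of the array as a whole. Each of the 9 genes was also taken by its probe set with the highest mean. Over both times LIG4 was higher (11.1% of the genes), and XRCC4, XRCC5, XRCC6 and DCLRE1C were lower (44.4%). Among all genes, 21% were higher and 19.7% lower. The XRCC4 call was lost in 7 of 12 refits with 1 array left out, and no other DCLRE1C probe set passed. The median log2 difference of the 9 genes over both times was -0.065, and that of all genes was -0.02.

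**Figure D1:**
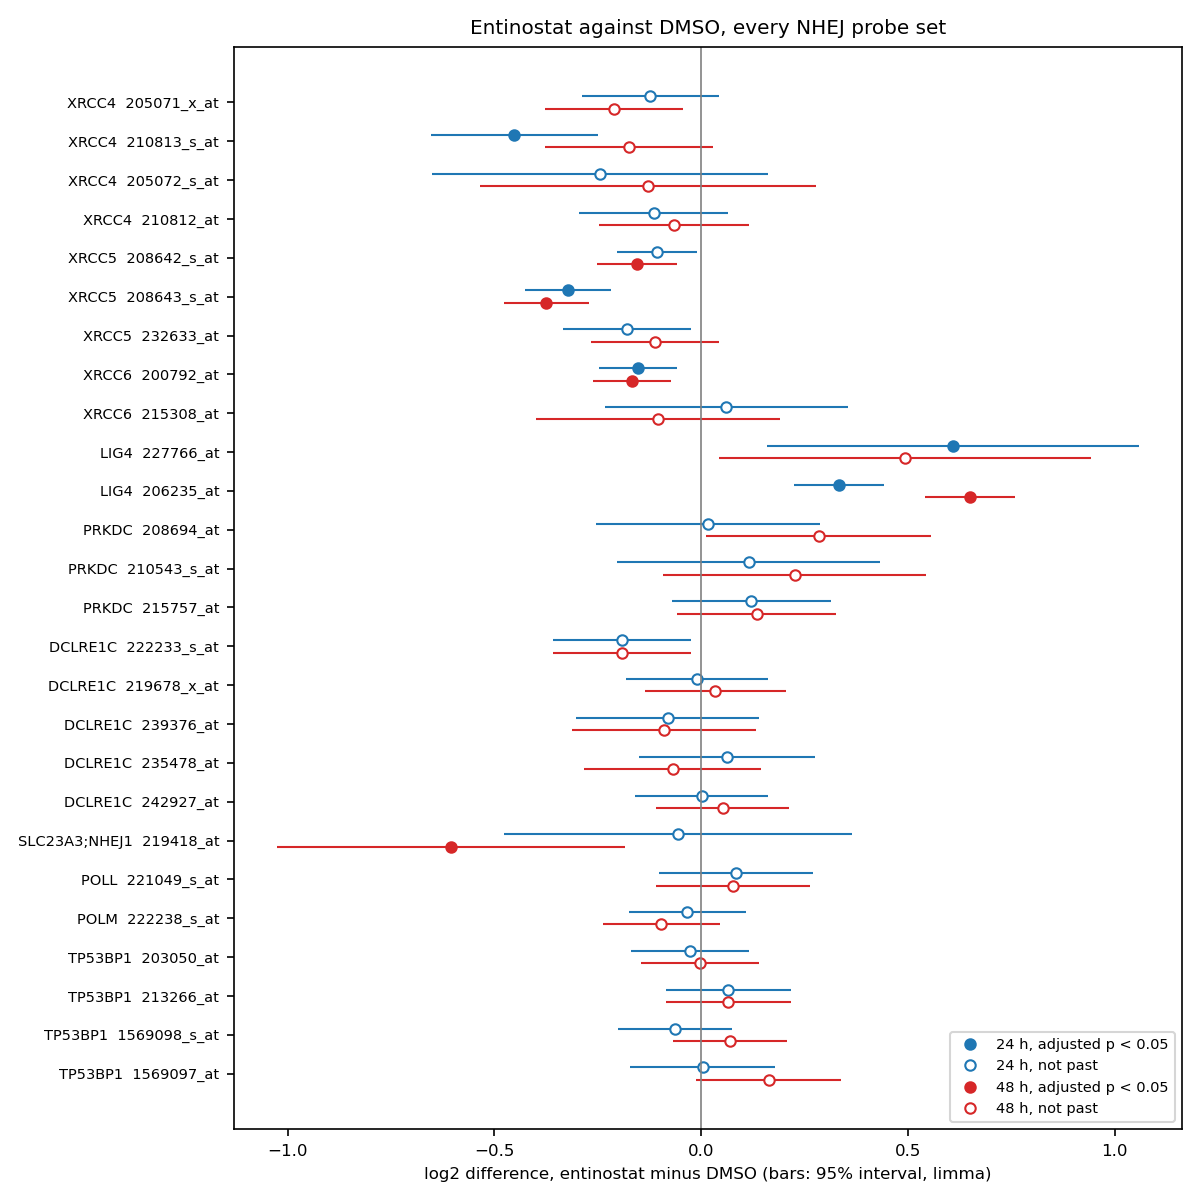
Log2 difference between entinostat and DMSO for each of the 26 NHEJ probe sets at 24 h (blue) and 48 h (red), with 95% intervals from limma; filled points passed an adjusted p of 0.05. LIG4 lies to the right of 0 at both times, up to 0.65, and the bright XRCC5 and XRCC6 probe sets lie to the left, down to -0.37.

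XRCC6 forms the Ku ring with XRCC5. Its bright probe set, 200792_at, had intensities of 4335, 4384 and 4317 in DMSO at 24 h and of 3899.9, 3907 and 3914 under entinostat. At 48 h the DMSO arrays read 4168, 3997 and 3962 and the entinostat arrays 3604, 3576 and 3613. All treated arrays lay below all DMSO arrays of their time. XRCC6 fell by 0.15 on the log2 scale at 24 h (standard error 0.04, adjusted p = 0.0199, limma) and by 0.17 at 48 h (standard error 0.04, adjusted p = 0.0116). With 1 of the 12 arrays left out at a time, the call at 24 h was lost in 4 refits, those without DMSO or entinostat replicate 1 or 2 at 24 h, and the call at 48 h was lost without DMSO replicate 1 at 48 h. Subtracting 30 from every intensity before log2 ended both calls, and fitting the 48 h arrays alone ended the call at 48 h. The other XRCC6 probe set, 215308_at, was dim, between 45.6 and 70.0 on all arrays, and its differences of 0.06 and -0.10 did not pass the test.

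XRCC5, the larger Ku subunit, which carries the tail that contacts DNA-PKcs, had 2 bright probe sets. On 208643_s_at, the DMSO arrays at 24 h read 3693, 3619 and 3774 and the entinostat arrays 2973, 2881 and 3013. At 48 h the values were 3939.7, 3689 and 3705 in DMSO and 2879, 2913 and 2945 under entinostat. All treated arrays lay below all DMSO arrays, at both times. The fall of 0.32 on the log2 scale at 24 h (standard error 0.05, adjusted p = 0.000245, limma) and of 0.37 at 48 h (standard error 0.05, adjusted p = 6.59e-05) passed in all 12 refits.

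On the other bright XRCC5 probe set, 208642_s_at, the treated arrays also lay below the DMSO arrays at both times, but closer to them. Its intensities at 24 h were 4009.6, 4111 and 4074 in DMSO and 3811, 3677 and 3842 under entinostat. At 48 h they were 3916, 3833 and 3841 in DMSO and 3544, 3429 and 3432 under entinostat. The log2 difference was -0.11 at 24 h (adjusted p = 0.109, limma) and -0.16 at 48 h (adjusted p = 0.0199), and the latter call was lost in 3 of 12 refits, without DMSO replicate 1 or entinostat replicate 2 or 3 at 48 h. Subtracting 30, and fitting the 48 h arrays alone, also ended it. The difference at 24 h passed with 50 added (adjusted p = 0.0181, limma), among probe sets with a mean log2 of at least 8 (0.0386) and with a trended, robust prior (0.04).

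The change over both times differed by 0.22 on the log2 scale between these 2 XRCC5 probe sets. An exact two-sided permutation test of this difference, with treatment labels exchanged within each time, gave p = 0.005, the smallest that its 400 arrangements allow. After Benjamini-Hochberg adjustment over the 7 genes with at least 2 probe sets, each compared in the same way over its 2 brightest, p was 0.035 for XRCC5 in this permutation test and at least 0.105 for each of the other 6. Both names end in _s_at, which marks probe sets that can bind several transcripts, and the transcripts they detect were not examined. The third XRCC5 probe set, 232633_at, was dim (57.4 to 74.8) and was lower over both times by 0.15 (adjusted p = 0.0374, limma), a call lost in 8 of 12 refits.

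**Figure D2:**
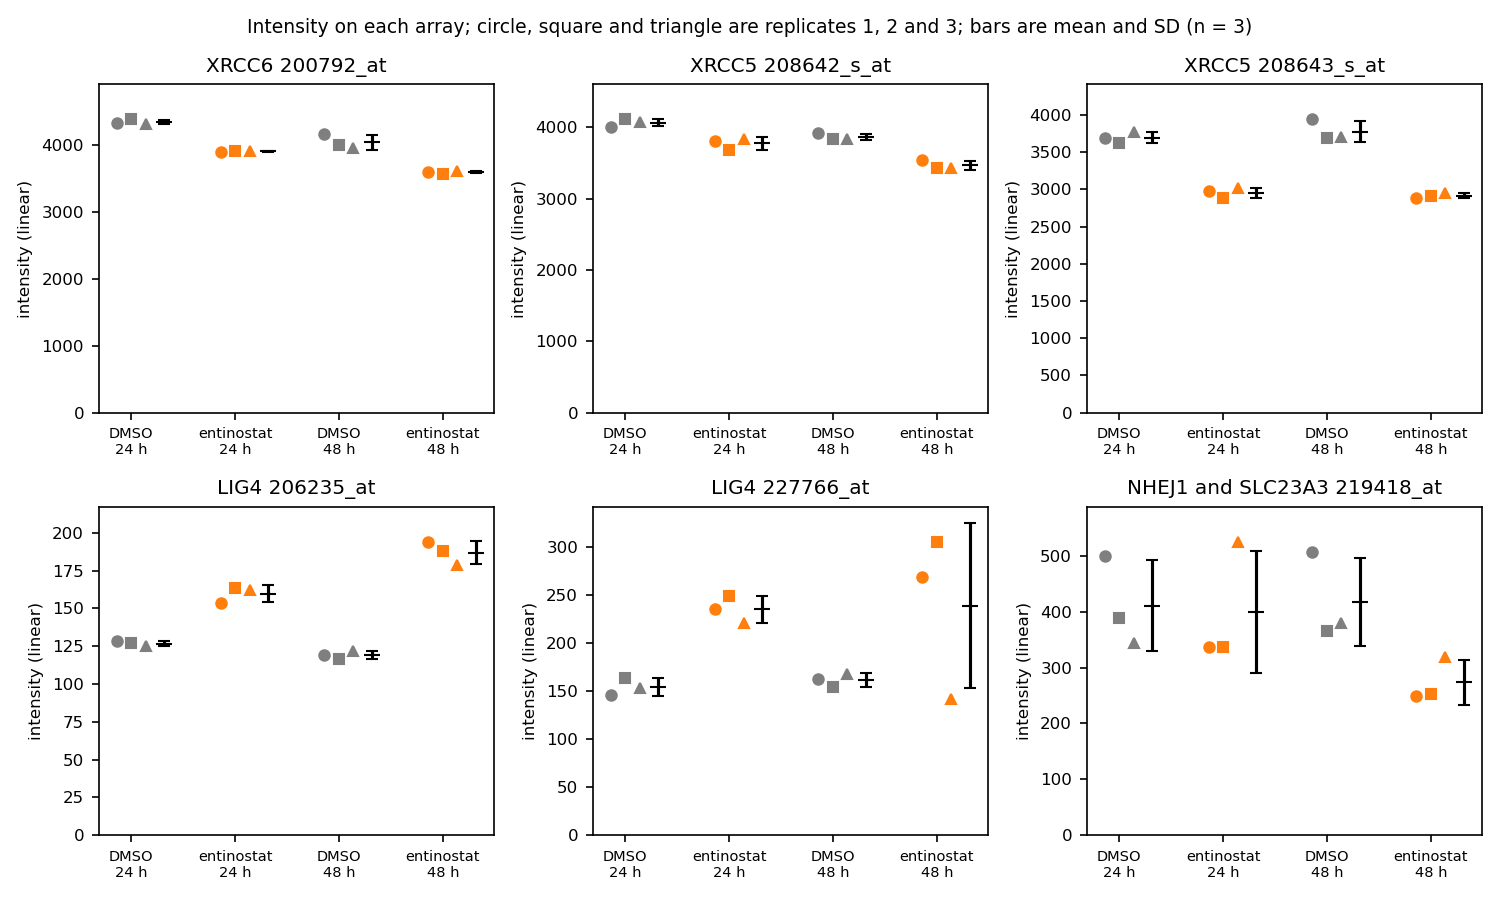
Intensity on a linear scale from 0 on each of the 12 arrays for 6 probe sets; grey is DMSO, orange is entinostat, symbols are replicates 1, 2 and 3, and bars give the mean and SD (n = 3). XRCC6 and both bright XRCC5 probe sets are lower in treated arrays than in DMSO arrays of the same time, LIG4 206235_at is higher, and entinostat replicate 3 at 48 h stands apart on LIG4 227766_at at 141.95.

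The promoter of XRCC6 is shown because XRCC6 starts beside DESI1, a gene for a SUMO-removing peptidase, and both fell under entinostat. RefSeq on build GRCh38.p14 places the window of 250 bases before to 50 after the start at chr22:41621045-41621344 on the plus strand. Capitals mark matches to the motifs searched: 3 GC boxes (GGGCGG), 1 CCAAT box and, at the end, 1 E2F motif (TTTGGCGC), the last 2 on the opposite strand.
XRCC6 promoter: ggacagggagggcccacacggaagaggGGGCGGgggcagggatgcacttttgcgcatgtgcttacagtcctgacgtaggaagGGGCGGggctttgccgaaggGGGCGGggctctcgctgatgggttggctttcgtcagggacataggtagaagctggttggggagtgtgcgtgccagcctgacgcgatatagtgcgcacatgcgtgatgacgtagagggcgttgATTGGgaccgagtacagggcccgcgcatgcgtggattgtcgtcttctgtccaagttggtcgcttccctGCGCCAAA

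PRKDC encodes the catalytic subunit that Ku activates at DNA ends. On 208694_at, its brightest probe set, DMSO replicate 2 at 24 h stood apart at 1589 while replicates 1 and 3 were at 1042.5 and 1116.5. The entinostat arrays at 24 h read 1263, 1223 and 1239, within the range of DMSO. At 48 h the DMSO arrays read 1166, 1189 and 1063 and the entinostat arrays 1283, 1407 and 1473.5, with no overlap. The log2 difference of 0.02 at 24 h (95% interval -0.25 to 0.29) and of 0.28 at 48 h (0.01 to 0.56, adjusted p = 0.127, limma) did not pass. That at 48 h passed without DMSO replicate 2 at 24 h and in a fit of the 48 h arrays alone (adjusted p = 0.0251). Over both times the difference was 0.15 (adjusted p = 0.259, limma), and 0.25 without DMSO replicate 2 at 24 h, which passed (adjusted p = 0.00164). On 210543_s_at, DMSO replicate 1 at 24 h was the low one at 389.7, against 631 and 589.95 in replicates 2 and 3, and the differences were 0.11 and 0.23 (adjusted p = 0.654 and 0.324, limma). The dim probe set 215757_at gave 0.12 and 0.13, neither past the test, so all 3 PRKDC probe sets had values above 0 at both times and none passed.

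DCLRE1C encodes Artemis, which opens hairpins and trims overhangs once DNA-PKcs has bound it. On its brightest probe set, 222233_s_at, the DMSO arrays read 146, 149 and 146 at 24 h and 146, 136 and 139 at 48 h. The entinostat arrays read 136, 139.55 and 113 at 24 h and 127, 126 and 115 at 48 h, below DMSO at both times. The log2 difference was -0.19 at each time, past the test at neither (adjusted p = 0.0959 and 0.0918, limma), while over both times DCLRE1C fell by 0.19 (standard error 0.05, adjusted p = 0.0121), also in all 12 refits. Entinostat replicate 3 was the low array at 24 h, and without it the difference at 24 h was -0.0935 and that at 48 h passed (adjusted p = 0.0224, limma). None of the other 4 DCLRE1C probe sets passed at 24 h, at 48 h or over both times, with log2 differences between -0.09 and 0.06.

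The gap-filling polymerases had no value past the test. POLL, which fills short gaps, read 174, 163 and 166 in DMSO and 166, 178 and 189.6 under entinostat at 24 h, and 179, 155 and 186 against 185, 164 and 199.9 at 48 h, so that the groups overlapped at both times. The log2 difference was 0.08 at each time, with 95% intervals of -0.10 to 0.27 at 24 h and -0.11 to 0.26 at 48 h. POLM, which can extend ends with little pairing, read 112, 102.4 and 98.6 in DMSO and 98.7, 106.3 and 100.4 under entinostat at 24 h. At 48 h it read 103, 118 and 105 in DMSO and 101, 102.1 and 101 under entinostat, without overlap. Its differences were -0.03 (-0.18 to 0.11) and -0.10 (-0.24 to 0.05), and neither passed the test.

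LIG4, the ligase specific to this pathway, was the NHEJ gene that rose. On 206235_at the DMSO arrays at 24 h read 128, 127 and 125 and the entinostat arrays 153, 164 and 162. At 48 h the values were 119.25, 117 and 122 in DMSO and 194, 188 and 179 under entinostat, above DMSO and also above the treated arrays at 24 h. LIG4 rose by 0.33 on the log2 scale at 24 h (standard error 0.05, adjusted p = 0.000292, limma) and by 0.65 at 48 h (standard error 0.05, adjusted p = 1.08e-06), and both calls held in all 12 refits. Treated cells at 48 h were higher by 0.23 than treated cells at 24 h (adjusted p = 0.0178, limma), while the control moved by -0.09 (adjusted p = 0.567). The interaction of treatment and time was 0.32 with adjusted p = 0.0563 from limma, so a larger rise at 48 h did not pass the test. It passed with probe sets under a mean log2 of 6.5 left out (adjusted p = 0.0364, limma), with quantile normalization (0.0467) and with 50 added (0.0285), and in none of 12 refits without an array. The difference between the treated times was lost with 30 subtracted, and without entinostat replicate 1 at 24 h or replicate 1 or 2 at 48 h.

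The other LIG4 probe set, 227766_at, turned on a single array at 48 h. It read 146, 164 and 153 in DMSO and 235, 249 and 221 under entinostat at 24 h, with no overlap. At 48 h it read 163, 154 and 167 in DMSO and 269, 305 and 141.95 under entinostat, where replicate 3 lay below all DMSO arrays. On 206235_at this same array read 179, above all DMSO arrays. The log2 difference was 0.61 at 24 h (standard error 0.21, adjusted p = 0.0482, limma), a call lost in 9 of 12 refits, in each one that left out an array other than an entinostat array at 48 h, and also with quantile normalization, with 30 subtracted and with 50 added. It was 0.49 at 48 h (adjusted p = 0.109), and 0.83 (adjusted p = 1.86e-05, limma) without entinostat replicate 3 at 48 h. On that array, 14 probe sets lay more than 0.8 below their 2 mates on the log2 scale, where the mates lay within 0.3 of each other. The other arrays had 6 to 27 such probe sets. This count covers only probe sets that meet this rule, and the cause of the low LIG4 value was not tested.

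XRCC4 is the scaffold that stabilizes LIG4, and its 4 probe sets all had values below 0 at both times. On 210813_s_at the DMSO arrays at 24 h read 141, 152 and 139.9 and the entinostat arrays 125, 93.0 and 101. At 48 h they read 121, 127 and 118 in DMSO and 116, 104 and 105 under entinostat. Treated arrays lay below DMSO at both times, with a narrow gap at 48 h. The probe set fell by 0.45 on the log2 scale at 24 h (standard error 0.09, adjusted p = 0.00292, limma), it had -0.17 at 48 h (adjusted p = 0.221), and the interaction did not pass (0.28, adjusted p = 0.413). The brightest XRCC4 probe set, 205071_x_at, had -0.12 and -0.21, past the test at neither time (at 48 h it passed with probe sets under a mean log2 of 6.5 left out, adjusted p = 0.0409 by limma, or adjusted over 1 probe set per gene), and was lower over both times by 0.17 (adjusted p = 0.0291, limma), a call lost in 7 of 12 refits. The remaining 2 probe sets gave values between -0.25 and -0.07 and did not pass.

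NHEJ1 encodes XLF, which bridges XRCC4 molecules across the break. Its only probe set, shared with SLC23A3, a transporter-like gene, was among the more variable ones. At 24 h it read 501, 389 and 344 in DMSO and 337, 337 and 525 under entinostat, and the groups overlapped. At 48 h it read 507, 365 and 379.96 in DMSO and 248, 252 and 319 under entinostat, all below DMSO. The log2 difference was -0.06 at 24 h (adjusted p = 0.883, limma) and -0.61 at 48 h (standard error 0.19, adjusted p = 0.0358), the latter lost without DMSO replicate 1 or 3 or entinostat replicate 1 or 2 at 48 h. The values cannot be assigned to either gene.

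**Figure D3:**
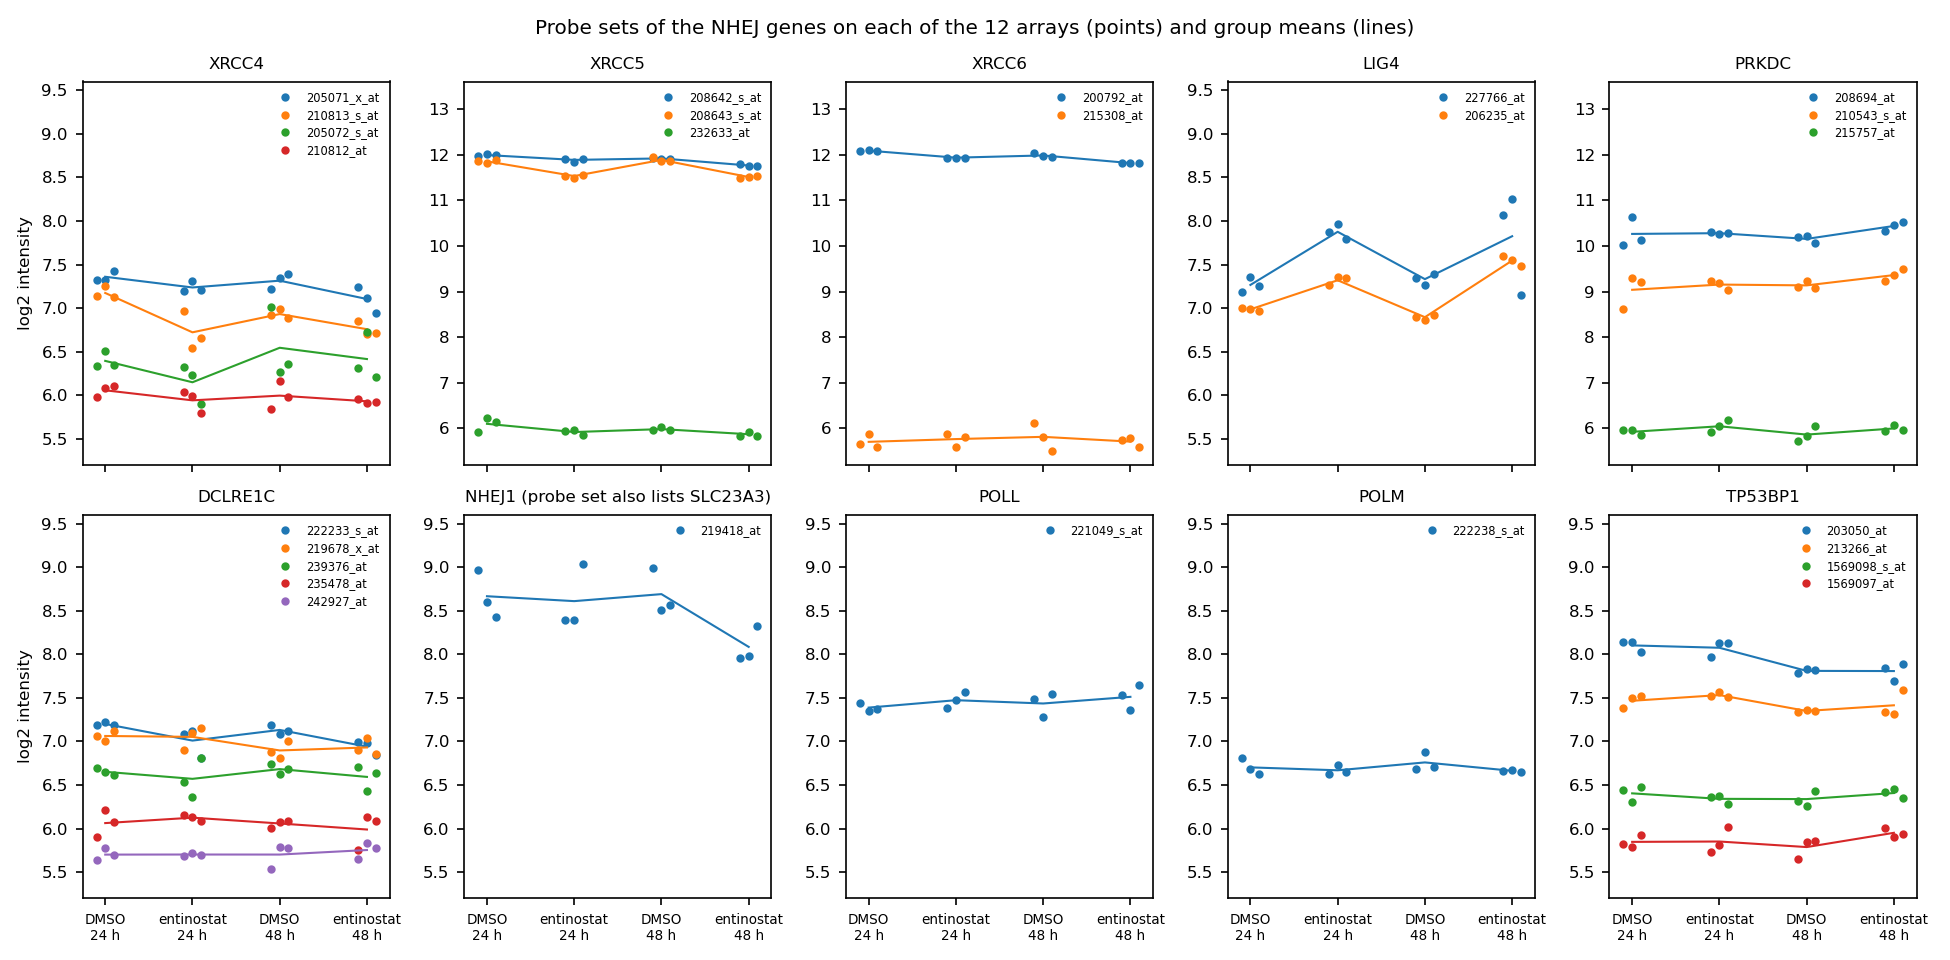
Log2 intensity of every probe set of the 10 NHEJ genes on the 12 arrays (points) with group means (lines), 1 panel per gene; the vertical scale reaches higher for XRCC5, XRCC6 and PRKDC than for the others. LIG4 goes up under entinostat, and the dim probe sets near 6 move little in any group.

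The promoters of LIG4 and XRCC4 are shown side by side because their products form a complex while their probe sets that passed at 24 h moved in opposite directions. RefSeq lists 5 starts for LIG4, of which the window of the outermost, at chr13:108218300-108218599 on the minus strand of GRCh38.p14, is printed; that of XRCC4 lies at chr5:83077297-83077596 on the plus strand. Capitals mark 1 ETS motif (CCGGAAGT) in LIG4, on the opposite strand, and 1 GC box and 1 CCAAT box, the latter on the opposite strand, in XRCC4.
LIG4 promoter: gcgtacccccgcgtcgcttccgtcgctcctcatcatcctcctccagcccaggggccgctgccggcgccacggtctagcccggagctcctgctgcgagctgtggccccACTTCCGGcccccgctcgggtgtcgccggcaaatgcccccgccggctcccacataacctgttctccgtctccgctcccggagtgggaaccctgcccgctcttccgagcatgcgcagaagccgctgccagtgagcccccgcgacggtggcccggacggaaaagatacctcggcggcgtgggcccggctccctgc
XRCC4 promoter: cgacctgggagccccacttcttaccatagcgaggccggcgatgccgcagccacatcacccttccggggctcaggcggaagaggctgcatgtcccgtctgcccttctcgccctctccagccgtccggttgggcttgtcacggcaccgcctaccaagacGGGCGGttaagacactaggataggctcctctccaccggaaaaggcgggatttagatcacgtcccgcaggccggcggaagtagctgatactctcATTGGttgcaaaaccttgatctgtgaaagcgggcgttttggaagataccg

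Promoter windows were at hand for 8 of the 10 genes. For each of these only the window of the outermost listed start was searched, whereas the windows of all genes include every listed start. A GC box was found in 6 of 8 and in 45% of 35116 promoter windows of the same length, and a CCAAT box in 5 of 8 and in 34.6%. The ETS motif was found in LIG4 and POLL and in 4.14% of all windows, and the E2F motif TTTGGCGC only in XRCC6 among the 8 and in 0.652% of all. None of these 8 windows held the E-box CACGTG, which the MYC and MAX dimer binds, against 7.26% of all windows. The NRF1 motif, the CRE TGACGTCA, the E2F motif TTTCCCGC and the YY1 motif were found in none of the 8 and in 1.24%, 1.85%, 1.63% and 0.849% of all windows. Both strands were searched, and a match or its absence describes only these letters in these windows.

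TP53BP1, which bears on the choice of pathway at a break, had no treatment difference past the test. On its brightest probe set it was lower at 48 h in treated and in DMSO cells, past the test only in treated cells. Its brightest probe set, 203050_at, read 282, 282 and 261 in DMSO and 250.4, 279 and 279.95 under entinostat at 24 h. At 48 h it read 221, 227 and 225 in DMSO and 229, 207 and 237 under entinostat. Treated and DMSO arrays overlapped at each time, and all arrays at 48 h lay below all arrays at 24 h. The treatment difference was -0.03 at 24 h (95% interval -0.17 to 0.12) and -0.0022 at 48 h (-0.15 to 0.14). Between 24 h and 48 h, TP53BP1 fell by 0.27 on the log2 scale in treated cells (adjusted p = 0.0289, limma), and its value in DMSO was -0.29 (adjusted p = 0.0828). The interaction of treatment and time was 0.025 (adjusted p = 0.954, limma), so a difference between these 2 falls did not pass. The call in treated cells was lost with 30 subtracted, and without entinostat replicate 2 or 3 at 24 h or replicate 1 or 2 at 48 h. None of its other 3 probe sets passed in any of these comparisons. On 1 of them, the dim 1569097_at, the treated arrays lay above all DMSO arrays at 48 h. Its log2 difference there was 0.16 (adjusted p = 0.177, limma).

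No NHEJ probe set passed for culture time in DMSO, and 2 did in treated cells. In DMSO, 0 of 26 differed between 48 h and 24 h at an adjusted p under 0.05 by limma, against 0.359% of all probe sets. In entinostat, LIG4 206235_at and TP53BP1 203050_at differed, 2 of 26, against 7.19% of all. The interaction of treatment and time passed for 0 of 26 by limma, against 1.21% of all. Without a test, the treated arrays lay above all DMSO arrays of the same time for 2 NHEJ probe sets at 24 h and 3 at 48 h (17.4% of all at each time) and below them for 7 and 8 (21.5% and 20.5%).

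Accessory NHEJ factors and end-processing enzymes were compared with the core genes over 12 measured genes. Over both times, 0 rose and 3 fell (25%), against 21% of all genes higher and 19.7% lower, with a median log2 difference of -0.08 against -0.02 for all genes. TDP1, which removes topoisomerase I and other adducts from 3' ends, fell by 0.83 at 24 h and 0.81 at 48 h on the log2 scale (adjusted p = 1.38e-05 and 1.5e-05, limma). The helicase and exonuclease WRN, which Ku stimulates, fell by 0.56 and 0.63, and SETMAR, which assists end joining, by 0.49 and 0.30. CYREN, a small regulator that binds Ku, fell by 0.25 at 24 h and had 0.02 at 48 h (adjusted p = 0.886, limma). PAXX, a paralogue of XRCC4 and XLF, had -0.09 and -0.03 and passed at neither time, and DNTT, RAG1 and RAG2, which act in lymphocytes, were dim and did not pass.

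In the pathway of 53BP1, 3 genes rose (21.4%) and 5 fell (35.7%) over both times among 14 measured, against 21% and 19.7% of all genes, with a median of -0.08. MAD2L2 (REV7), a subunit of the shieldin complex through which 53BP1 protects ends, rose by 0.83 at 24 h and 0.73 at 48 h (adjusted p = 9.88e-07 and 2.46e-06, limma). The other shieldin subunits measured moved the other way, where SHLD1 fell by 0.44 and 0.42 and SHLD2 by 0.32 and 0.36. CTC1, of the CST complex that fills in resected ends with shieldin, rose by 0.56 and 0.55, while STN1, of the same complex, had 0.15 at 24 h (adjusted p = 0.257, limma) and fell by 0.39 at 48 h (adjusted p = 0.00468). NUDT16L1 (TIRR), which covers the chromatin-binding part of 53BP1, fell by 0.48 at 24 h and had -0.26 at 48 h (adjusted p = 0.182, limma). H2AX, the histone that marks breaks, rose by 0.51 at 24 h and had -0.11 at 48 h (adjusted p = 0.61, limma), and the interaction did not pass (adjusted p = 0.132).

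Of the competing routes, end resection and alternative end joining had 0 genes higher and 6 lower (60%) among 10 measured over both times, against 21% and 19.7% of all genes, with a median of -0.24. NBN, of the MRN complex that begins resection, fell by 0.41 and 0.71 on the log2 scale, and LIG3, the ligase of alternative end joining, by 0.27 and 0.36. POLQ, its polymerase, fell by 0.22 and 0.32, and the resection nuclease DNA2 had -0.23 at 24 h (adjusted p = 0.113, limma) and fell by 0.46 at 48 h. Homologous recombination had 4 higher (28.6%) and 5 lower (35.7%) among 14, against the same shares of all genes, with a median of -0.05. SWI5, a recombination factor, rose by 0.69 and 0.74, whereas RAD54L fell by 0.48 and 0.53, BARD1 by 0.32 and 0.59 and BRCA1 by 0.21 and 0.51. Differences between the lists were not tested.

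Genes of S phase and mitosis were mostly lower. Among 20 of them, 0 rose and 15 fell (75%) over both times, against 21% and 19.7% of all genes, with a median of -0.35 and MCM5, MCM7, CCNB2 and TYMS falling most. The other 5 did not pass, among them PCNA and TOP2A, each at -0.04, and MCM6 at -0.09. Their summed intensity was 39750 to 40980 in DMSO and 32150 to 33440 under entinostat at 24 h, and 39510 to 40310 and 28440 to 30100 at 48 h. Their part in the changes of the NHEJ genes was not tested.

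**Figure D4:**
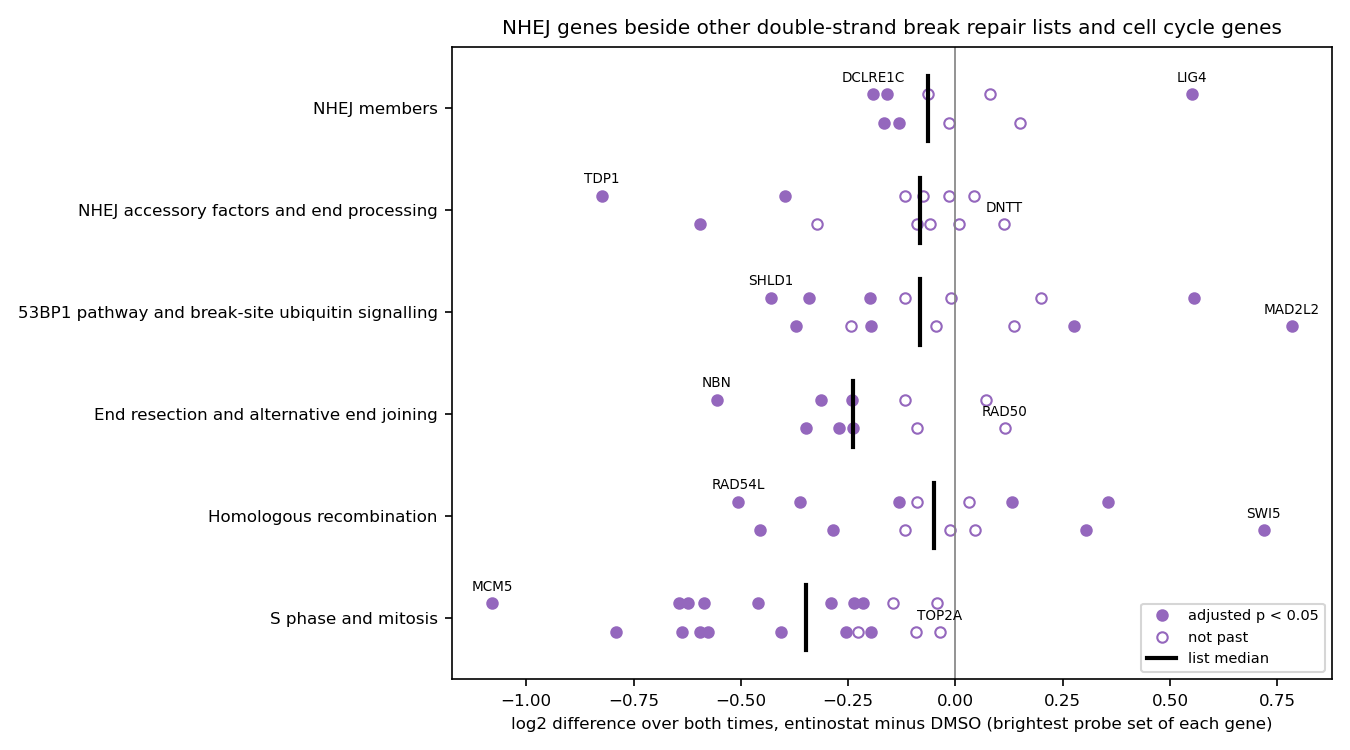
Log2 difference over both times between entinostat and DMSO for the genes of 6 lists, each gene by its probe set with the highest mean; filled points passed an adjusted p of 0.05 in limma, black bars are list medians, and the lowest and highest gene of each list are named. The median is -0.065 for the NHEJ genes, -0.05 for homologous recombination, -0.08 for the 53BP1 pathway and -0.08 for accessory factors. It is -0.24 for end resection and alternative end joining and -0.35 for S phase and mitosis, and LIG4 stands at 0.55.

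Among 8 NHEJ genes in the RefSeq promoter table, 5 had a gene starting within 1000 bases on the opposite strand, as had 23.3% of 27305 genes. Whether the genes of a pair run apart or overlap was not checked. These neighbours were chosen by position after the data had been seen. DESI1, beside XRCC6, fell like it, by 0.22 at 24 h and 0.26 at 48 h on the log2 scale (adjusted p = 0.014 and 0.00551, limma). ABHD13, beside LIG4, had 0.03 at 24 h (adjusted p = 0.843) and rose by 0.29 at 48 h (adjusted p = 0.00657, limma). TMEM167A, beside XRCC4, had -0.04 at 24 h and rose by 0.33 at 48 h (adjusted p = 0.00173, limma), where all 4 XRCC4 differences were below 0. DPCD, beside POLL, fell by 0.47 at 24 h and rose by 0.36 at 48 h (adjusted p = 0.000172 and 0.00122, limma), while POLL itself passed at neither time. MAP1A, beside TP53BP1, rose by 0.42 at 24 h and had 0.39 at 48 h (adjusted p = 0.0448 and 0.0573, limma). So 1 of the 5 pairs passed in the same direction at both times, XRCC6 and DESI1.

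**Figure D5:**
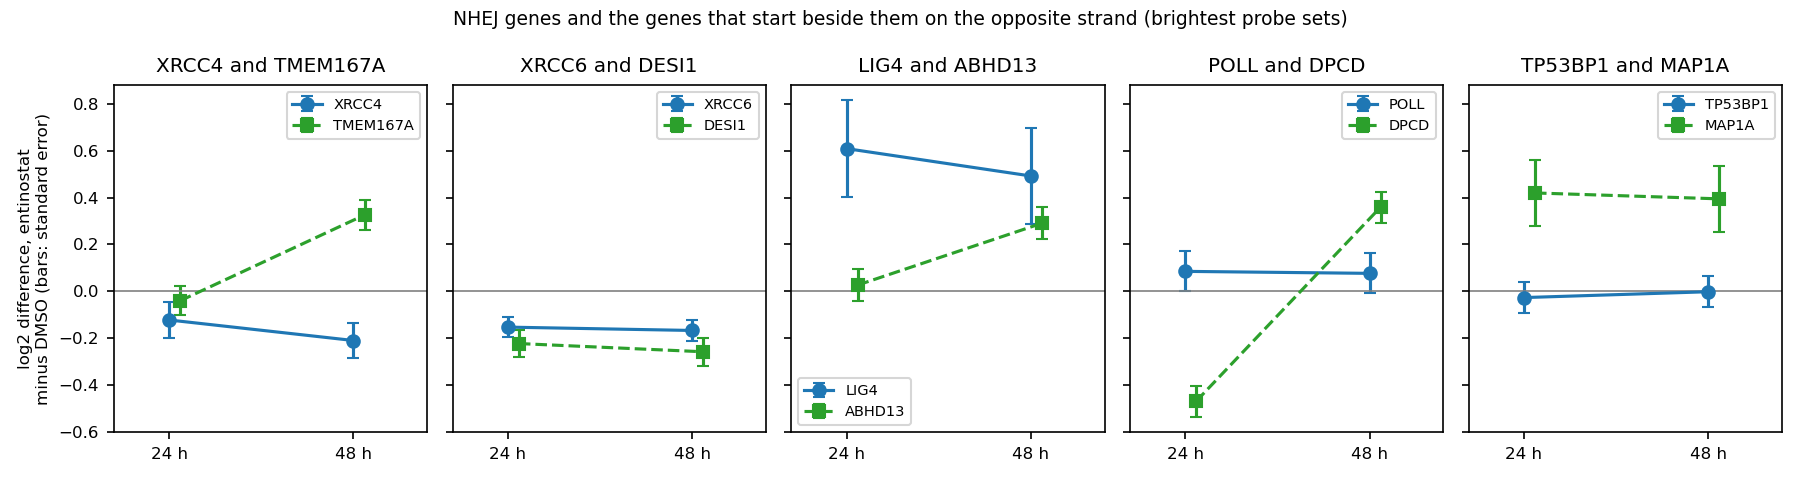
Log2 difference between entinostat and DMSO at 24 h and 48 h for 5 NHEJ genes (blue circles) and the gene that starts beside each on the opposite strand (green squares), each by its probe set with the highest mean; bars are standard errors from limma. XRCC6 and DESI1 lie below 0 together, and DPCD crosses from -0.47 to 0.36 while POLL stays at 0.08.

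The genes whose values ran most like those of LIG4, DCLRE1C and XRCC4, the 3 NHEJ genes with the largest differences over both times when each is taken by its brightest probe set, are given as a description. Over the 12 arrays, Pearson's r with LIG4 (227766_at) was 0.932 for PLPPR1, 0.928 for C3orf80 and 0.91 for TRIM66. With DCLRE1C it was 0.972 for KCNG3, 0.927 for LOC285191 and 0.926 for E2F8. With XRCC4 it was 0.912 for ZBTB45, 0.901 for NGDN and 0.886 for SEC22C. All 12 points share the same 4 groups, so a treatment difference alone brings genes together.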

How the data were processed

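The authors normalized the Affymetrix scans with GCRMA (named without a version) and deposited intensity values on a linear scale, although the methods name a log2 transformation; log2 was taken here. Controls (62 probe sets) were left out, and 1801 probe sets with several symbols named no gene; 2 empty cells were treated as missing. The fits used limma 3.58.1 (R 4.3.3) on 54613 probe sets, with the 4 groups of 12 arrays as coefficients or, for both times, treatment and time as additive terms. P-values were adjusted by Benjamini-Hochberg across these probe sets and called under 0.05. The brightest probe set stood for its gene. Deviations from the group means correlated with r from -0.061 to 0.202 between same-numbered arrays of different groups. Between differently numbered arrays r was from -0.21 to 0.072. The main fits did not take the numbers as pairs, and counts with the number as a block are given below.

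The NHEJ genes, lists and alternatives were chosen with earlier results of these data known. All NHEJ probe sets are given, with up to 4 genes per list with the largest differences past the threshold, genes whose role is tied to a member, and the 3 genes most correlated with each of 3 members. The procedure was tested on simulated data. Some genes of the lists were not analysed here. The number of arrays limits the precision, and the array files named no genome build.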

Additional observations from a re-analysis of the deposited data

Results flagged for a closer look

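The treatment effect differed between the times for 2 genes named above or listed with them. For CDK1, a mitotic kinase of the S phase and mitosis list, the interaction of treatment and time was -0.3428 on the log2 scale (adjusted p = 0.0387, limma), with a difference of -0.03 at 24 h and -0.37 at 48 h. For DPCD, the gene beside POLL, it was 0.829 (adjusted p = 0.003, limma), with -0.47 at 24 h and 0.36 at 48 h.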

How the results depend on the processing

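Counts of called NHEJ probe sets moved under several alternatives, and no difference of a named NHEJ probe set that was called changed sign. With probe sets under a mean log2 of 6.5 left out, 1 interaction, that of LIG4 206235_at, was called, as with quantile normalization and with 50 added to every intensity. Leaving out those under a mean of 8 removes both LIG4 probe sets, and 0 were then higher at 24 h, at 48 h or over both times, 3 were lower over both times, and 0 genes were higher and 2 lower. With quantile normalization, with 30 subtracted and with 50 added, 1 was higher at 24 h. With 30 subtracted, 2 were lower at 48 h and 0 differed between 48 h and 24 h of entinostat, against 4 with 50 added. Separate fits per time gave 2 higher and 2 lower at 48 h. Without _x_at and _s_at probe sets where a gene had another, 2 genes were lower. Adjusted over 1 probe set per gene, and so counted over fewer, 1 was higher and 1 lower at 24 h, 0 higher at 48 h, 1 higher and 4 lower over both times, and 1 differed between the entinostat times. At an adjusted p under 0.01, 1 was higher at 24 h, 1 lower at 48 h, 4 lower over both times with 2 genes lower, and 0 differed between the entinostat times; under 0.1, 5 were lower at 24 h, 1 interaction and 1 difference between the DMSO times passed. Where no construction is named, the cause was not tested.

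With each array left out in turn, 1 to 2 were higher and 2 to 3 lower at 24 h, 1 to 2 and 2 to 5 at 48 h, 2 to 3 and 5 to 7 over both times, 1 to 2 genes were higher and 3 to 4 lower, 0 to 2 differed between the entinostat times, and 0 in the interaction or between the DMSO times. The entinostat times gave 0 without entinostat replicate 1 or 2 at 48 h, and 2 were lower at 48 h without DMSO replicate 1 or entinostat replicate 2 at 48 h. With the replicate number as a block, 2 were higher and 3 lower at 24 h, 1 and 4 at 48 h and 2 and 7 over both times, as without it.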
